A study of Drosophila melanogaster with 4 samples.

Results

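The Polycomb group protein Sfmbt of Drosophila melanogaster (dSFMBT in the labels) was mapped across the fly genome, and its binding is described here next to the centromeres of chromosomes 2 and 3. The members were the clusters of Sfmbt enrichment whose midpoint lay in the last 2 Mb of arm 2L, the last 2 Mb of 3L or the first 2 Mb of 3R, which are the ends that face the centromere in FlyBase release 5. They numbered 328 of the 8434 clusters (3.89%) in the authors' combined list, with 95 on 2L, 76 on 3L and 157 on 3R. The study mapped Sfmbt by chromatin immunoprecipitation and sequencing (ChIP-seq) with the antibody Q2642, with 2 ChIP replicates and 2 input samples. All 4 came from nuclei of heads of the untreated wild-type strain Oregon-R-modENCODE. The flies were adults of mixed age, raised in population cages on a 22-day cycle, and the heads were separated by sieving. Heads hold many cell types, so a cluster can stand for any share of them. Whether the 2 ChIP samples are separate fly collections is not in the labels, so their spread may be technical. The authors deposited a list of clusters per ChIP replicate and a combined list. Each cluster has 1 score, the authors' own, which is on a log2 scale. Depth per sample is unknown.

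Sfmbt carries MBT repeats that bind methylated histone tails, and with the DNA-binding protein Pho it forms the Pho repressive complex, which helps to hold developmental genes silent. The chromosomes of the fly are packed near the centromeres into pericentric heterochromatin, which is rich in repeats, poor in genes and bound by HP1. The assembled arms run from gene-rich euchromatin into the edge of this heterochromatin. They stop short of the centromere itself, and release 5 keeps further heterochromatic sequence apart as 2LHet, 3LHet and 3RHet. The members are therefore near the ends of the assembled arms, at an unknown distance from the centromeres. The base of 2L is known to carry the histone gene repeats and the Polycomb target teashirt. No member was assigned to a gene, since no annotation of release 5 was used here.

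The centromere-proximal windows differed from each other. Sfmbt clusters were sparse at the base of 2L and sparser at the base of 3L, and they were dense at the base of 3R. On 2L there were 31.0 clusters per Mb in replicate 1 and 34.0 in replicate 2, against 47.2 and 46.6 in the middle of the arm, which is the part from 25% to 75% of its length. On 3L the values were 21.0 and 26.5 per Mb, against 51.5 and 49.3 in the middle. On 3R they were 66.0 and 64.5, against 54.9 and 53.6. The replicates did not overlap between window and middle on any of the 3 arms. As a ratio of window to middle, density was 0.69 ± 0.05 on 2L, 0.47 ± 0.09 on 3L and 1.20 ± 0.00067 on 3R (mean ± SD, n = 2). Each difference was larger than the spread between replicates. With 2 replicates, an exact two-sided sign-flip permutation test gave p = 0.5 on each arm, the smallest p that this design allows.

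**Figure D1:**
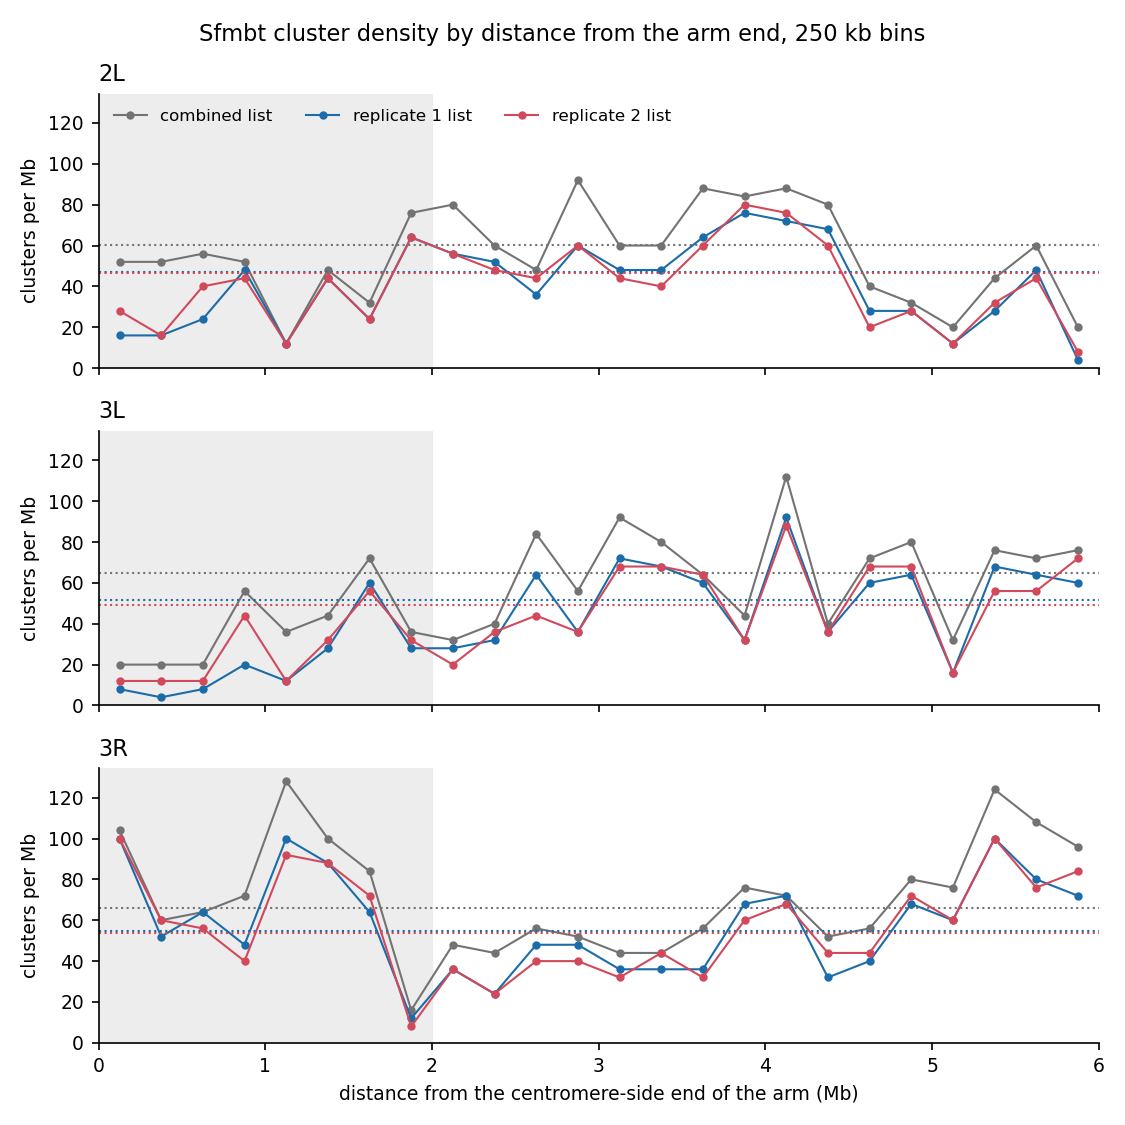
Clusters per Mb (vertical axis) in 250 kb bins by distance in Mb from the centromere-side arm end (horizontal axis), for the combined list and each replicate's list. Dotted lines give each list's density in the middle of the arm and the grey band marks the 2 Mb window. In the band, 3R is above its dotted lines in most bins and drops at the far edge. There 2L and 3L are mostly below their dotted lines.

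The share of sequence covered followed density on 3L and 3R but not on 2L. Clusters covered 6.13% of the 3L window in replicate 1 and 8.13% in replicate 2, against 13.0% and 12.1% of the middle. They covered 17.5% and 16.2% of the 3R window, against 14.3% and 13.5%. On 2L the window was covered to 10.1% and 11.8%, and the middle to 11.9% and 11.6%. Replicate 1 was thus lower in the 2L window and replicate 2 slightly higher, so no difference beyond the spread was seen there. The fewer clusters of 2L were wider, as described next.

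Where clusters were present, they were wider and scored higher than in the middle of the same arm, in both replicates and on all 3 arms. The median width on 2L was 2701.5 bp in replicate 1 and 2681.5 bp in replicate 2, against 2164 and 2147.5 bp in the middle. On 3L the medians were 2410 and 2281 bp, against 2191 and 2158 bp. On 3R they were 2352 and 2296 bp, against 2202 and 2170.5 bp. The largest gap in width was thus on 2L, with a ratio of window to middle of 1.25 in each replicate. The median score on 2L was 0.92 in replicate 1 and 0.89 in replicate 2, against 0.72 and 0.68 in the middle. On 3L these were 0.87 and 0.79, against 0.73 and 0.69, and on 3R 0.82 and 0.81, against 0.76 and 0.70. The difference in median score was 0.20 ± 0.0097 on 2L, 0.12 ± 0.03 on 3L and 0.09 ± 0.04 on 3R (log2, mean ± SD, n = 2). The same exact sign-flip permutation gave p = 0.5, its smallest value, for width and score on each arm.

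**Figure D2:**
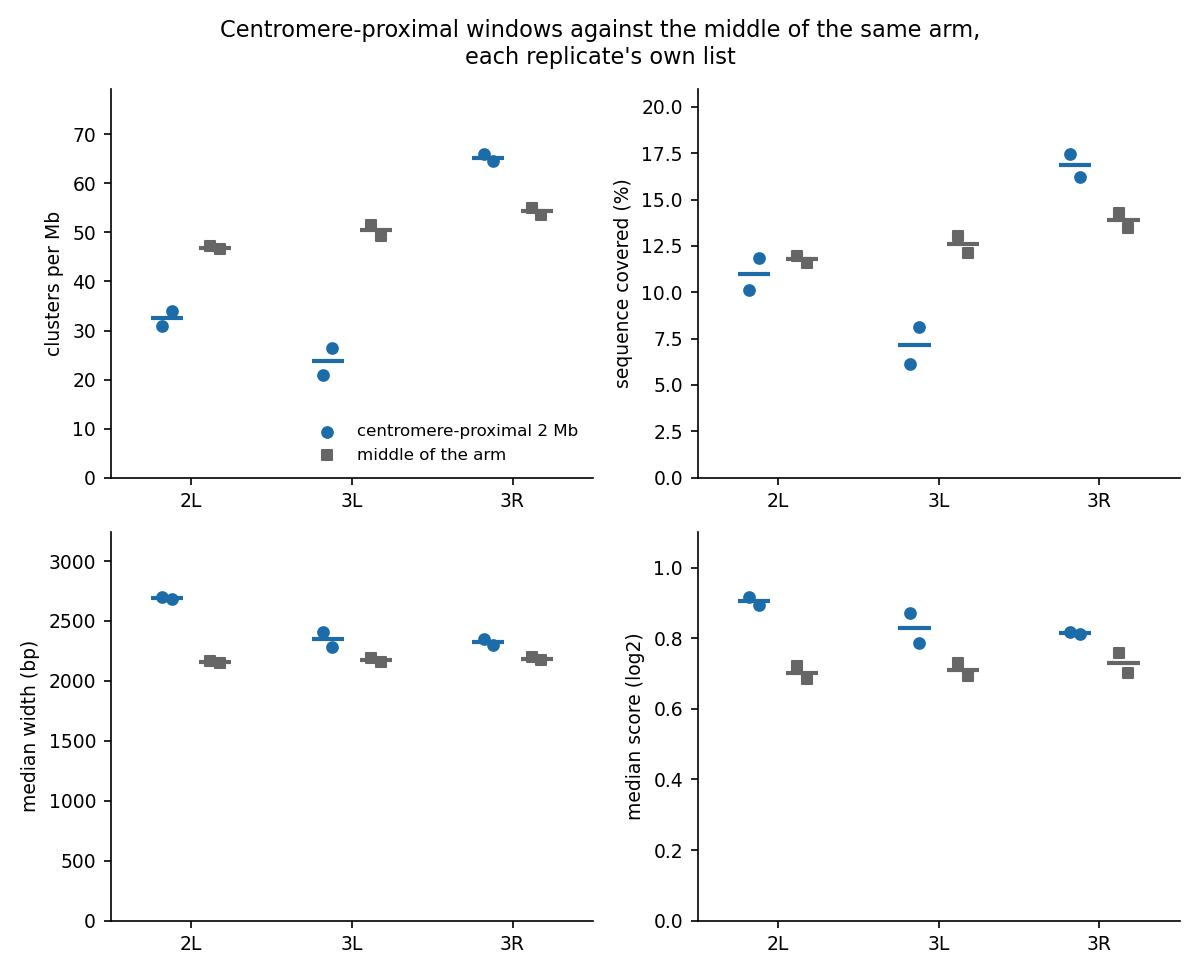
Density, covered share, median width and median score (vertical axes) in each replicate's own list, for the 2 Mb window (circles) and the middle of the arm (squares) on 2L, 3L and 3R; bars are means of the 2 replicates. Width and score are higher in the window on every arm, while density is lower on 2L and 3L and higher on 3R.

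The combined list showed the same order of density, at 47.5 clusters per Mb on 2L, 38 on 3L and 78.5 on 3R, against 60.4, 64.9 and 66.2 in the middle. Its scores did not all follow those of the replicates. The median score of the members was 0.70 on 2L, 0.52 on 3L and 0.68 on 3R, against 0.51, 0.53 and 0.58, so that 3L was below its middle by 0.01. The members of 3L that both replicates' lists overlapped had a median of 0.86, against 0.71 for such clusters in the middle. The other members of 3L had medians of 0.43 (replicate 1 alone), 0.43 (replicate 2 alone) and 0.47 (neither).

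Each arm was also divided into consecutive whole windows of 2 Mb from the centromere-side end, a description added after the data were seen. On 2L the window next to the centromere held the fewest clusters of 11 windows in both replicates, with 62 and 68, and the other windows held at least 72 and 70. On 3L it held the fewest of 12, with 42 and 53, against at least 70 and 65 elsewhere. On 3R it held 132 in replicate 1, above the 131 of the fullest of the other 12 windows. In replicate 2 it held 129, and 1 window held more, with 137. By the combined list the 2L window held 95, and 1 other window of 2L held fewer, with 94. The 3L window held the fewest there as well, with 76 against at least 92. The 3R window held 157, and 1 other window of 3R held more, with 166. Median width and median score were higher in the centromere-proximal window than in every other whole window of the same arm, on all 3 arms and in both replicates' lists. The part of each arm left over at the telomere was not in this count. The telomere-side 2 Mb of 3L had a median width of 2288 bp in replicate 2, above the 2281 bp at the centromere side. The margins differed. On 2L the score of 0.92 in replicate 1 compared with at most 0.83 elsewhere on the arm. On 3L in replicate 2 the score of 0.79 compared with at most 0.78. In the combined list 6 of the 11 other 3L windows and 1 of the 10 other 2L windows had a higher median score, and 9 of the other 3L windows a higher median width.

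Within the windows, density was uneven, and its course differed by arm. At the base of 3L the bins of 250 kb held 2, 1 and 2 clusters in replicate 1 over the first 3 bins, and 3 in each in replicate 2. The fullest bin of 3L, from 1500 to 1750 kb (22793558 to 23043557), held 15 in replicate 1 and 14 in replicate 2. At the base of 2L the first 2 bins held 4 and 4 in replicate 1, and 7 and 4 in replicate 2. The bin of 2L from 1000 to 1250 kb held only 3 in each list. The fullest bin of 2L, from 1750 to 2000 kb (21011545 to 21261544), held 16 in each replicate. Bins of the same size in the middle of the arms had medians of 12 on 2L and 13 on 3L in replicate 1, and of 11.5 and 12 in replicate 2.

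Density was also uneven on 3R, with the fullest bins at the arm's start and from 1000 to 1500 kb. Between them, from 250 to 1000 kb, the bins held 13, 16 and 12 clusters in replicate 1. In replicate 2 they held 15, 14 and 10. The median of bins of this size in the middle of 3R was 13 in each replicate. The first bin of 3R held 25 clusters in both replicates, and the bin from 1000 to 1250 kb (1000001 to 1250000) was the fullest in the combined list, with 32. That bin held 25 in replicate 1 and 23 in replicate 2. The bin from 1750 to 2000 kb held 3 in replicate 1 and 2 in replicate 2. Over the middle of 3R, bins of this size held between 5 and 27 in replicate 1 and between 3 and 25 in replicate 2. The sparse bin was thus below the range of the middle in both replicates. The fullest bin was within that range in the replicates, and in the combined list its 32 was above the highest count of the middle, 31. From 2000 to 2500 kb, outside the window, 3R had 30 clusters per Mb in each replicate.

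Members differed in how often the replicates' own lists also had them. Of the 328 members, 200 overlapped a cluster of both replicates by at least 1 bp (61.0%, 95% exact binomial interval 55.5 to 66.3%), against 65.1% of the whole combined list. The share was 72.0% on 3R (113 of 157, interval 64.3 to 78.8%), 55.8% on 2L (53 of 95, interval 45.2 to 66.0%) and 44.7% on 3L (34 of 76, interval 33.3 to 56.6%). In the middle of these arms it was 71.1%, 67.2% and 66.2%. The intervals of 2L and 3L lay below the shares in their middles, and that of 3R held it. The middle of 2L had an interval of 63.6 to 70.7%, which overlapped that of its window. The middle of 3L had 62.8 to 69.5%, which did not. Another 22 members overlapped replicate 1 alone, 40 replicate 2 alone and 66 neither. The last are 20.1% of the members, against 18.9% of the whole list. Intervals cover counting error only and treat clusters of the same libraries as independent, which they are not.

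On 2L and 3L the share found in both replicates was lower on the arm-end side of the window than at its far side. In the 500 kb nearest the end of 2L, 5 of 26 members overlapped both replicates and 13 overlapped neither. In the same stretch of 3L, 3 of 10 overlapped both, from 500 to 1000 kb 4 of 19 did and from 1000 to 1500 kb 7 of 20 did. From 1500 to 2000 kb the counts were 21 of 27 on 2L and 20 of 27 on 3L. On 3R the nearest 500 kb had 32 of 41, and each of its 4 segments had between 67.6% and 78.0%. The arms also differed in which replicate's clusters lacked a partner. Of replicate 2's clusters in the windows, 79.4% on 2L, 66.0% on 3L and 93.0% on 3R overlapped a cluster of replicate 1, against 89.6%, 91.6% and 92.0% in the middle. For replicate 1 the shares with a partner in replicate 2 were 93.5%, 85.7% and 88.6%, against 88.6%, 86.2% and 88.5%. In the windows the share was thus lower for replicate 2 on 2L and 3L, and lower for replicate 1 on 3R. In the middle it was lower for replicate 1 on all 3 arms, so only 2L and 3L departed from that order.

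**Figure D3:**
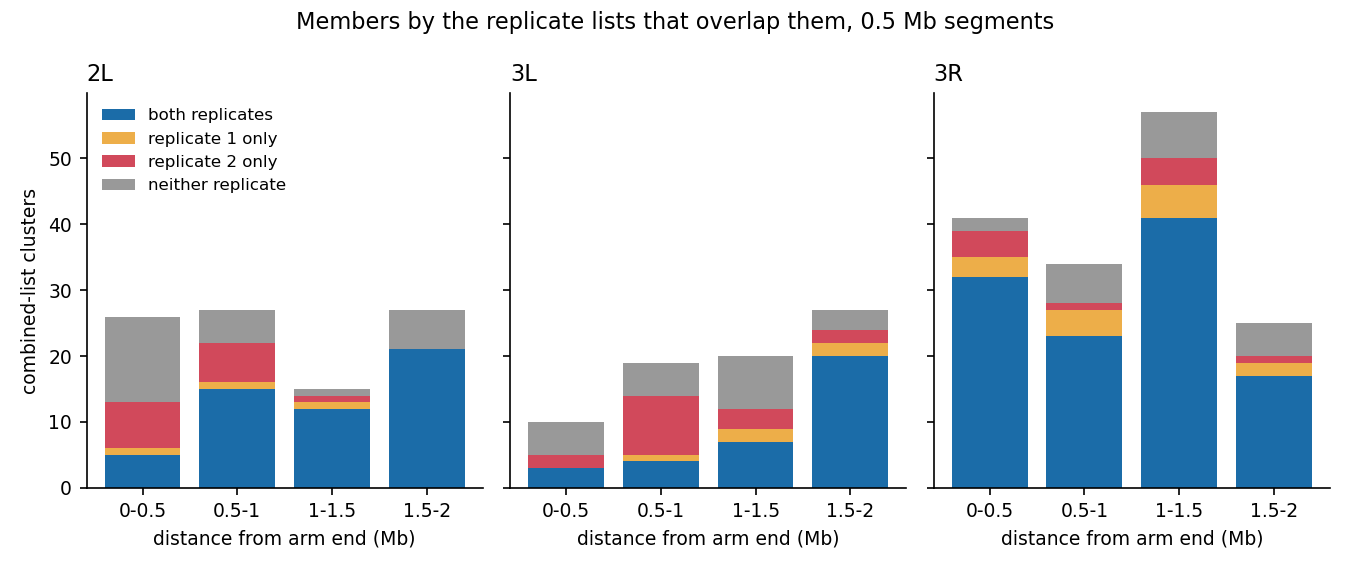
Number of combined-list members (vertical axis) in 0.5 Mb segments by distance from the arm end (horizontal axis), with colours for members overlapped by both replicates' lists, by 1 of them or by neither. The segment nearest the end of 2L holds 5 members found in both replicates and 13 found in neither, whereas that of 3R holds 32 and 2.

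The wide members lay mostly on 2L and 3L. Of the 328 members, 33 were at least 5 kb wide (10.1%), against 8.88% of the whole list and 5.55% of clusters in the middle of the arms. They were 14 of 95 on 2L (14.7%, exact interval 8.30 to 23.5%), 9 of 76 on 3L (11.8%, interval 5.56 to 21.3%) and 10 of 157 on 3R (6.37%, interval 3.10 to 11.4%). In the middle the shares were 4.89%, 5.90% and 5.74%. In the telomere-side 2 Mb they were 9.09% on 2L, 10.2% on 3L and 9.01% on 3R, and 9.5% (38 of 400) for the arms pooled. Wide clusters were thus not particular to the centromere side, and on 3R their share was higher at the telomere side. On 2LHet, 3LHet and 3RHet they made up 28.6% of 7, 18.9% of 53 and 18.5% of 27 clusters. All 33 overlapped both replicates, as did 133 of the 134 clusters of at least 5 kb in the middle. A wide cluster has more sequence in which to do so.

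The widest member spanned 17540 bp near the end of 2L (22956710 to 22974249), centred 46.1 kb from the arm end. Its score was 1.46 in the first replicate and 1.50 in the second (1.48 ± 0.03, SD, n = 2), and each replicate's list had 1 cluster there. Another on 2L, at 22869034 to 22879817, was 10784 bp wide and scored 1.10 and 1.19. The widest of 3L, at 23082860 to 23093876, was 11017 bp wide and scored 1.15 in replicate 1 and 1.52 in replicate 2, each with 2 clusters there. A member of 8874 bp at 24526404 to 24535277, centred 12.7 kb from the end of 3L, scored 1.13 and 1.28. The widest of 3R, at 222599 to 230613, was 8015 bp wide and scored 1.14 and 1.12, with 3 clusters in replicate 1 and 2 in replicate 2. Of the 200 members found in both replicates, 18 joined more than 1 cluster of at least 1 replicate.

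Width ran in opposite directions along 2L and 3L for all members and for those found in both replicates. Over all members, the median width in the nearest 500 kb was 2120.5 bp on 2L and 1426.5 bp on 3L, below the 2517 and 2532 bp from 1500 to 2000 kb. For members found in both replicates, the median width in the nearest 500 kb was 7664 bp on 2L (5 members) and 8874 bp on 3L (3 members), and from 1500 to 2000 kb it was 2874 bp (21 members) and 2854 bp (20 members). On 3R the medians of the same segments were 2853.5 bp (32 members) and 2389 bp (17 members). Across members found in both, Spearman's rho between distance and width was -0.44 on 2L (53 members), -0.52 on 3L (34 members) and -0.11 on 3R (113 members). These are descriptions over clusters of the same pair of libraries. The choice of these members favours wide clusters, with a median of 3006 bp against 1358.5 bp for members found in neither replicate. On 2L and 3L a smaller share was found in both near the arm end. The course of width with distance cannot be told apart from that choice. In the replicates' own lists the change on 2L was smaller, with medians of 3067.5 and 3080 bp in the nearest segment and 2641 and 2610 bp in the farthest. On 3L they were 3897 and 2109 bp against 2366 and 2355.5 bp, with only 3 and 6 clusters in the nearest segment, so the replicates differed in direction.

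The 2 members with the highest combined scores lay on 3R. The cluster at 677011 to 679491 on 3R was 2481 bp wide and ranked 25 of 8434 in the combined list, with a score of 2.45. Its score was 2.79 in the first replicate and 2.10 in the second (2.45 ± 0.49, SD, n = 2). The next, at 911317 to 914837, scored 2.09 and 1.61 (1.85 ± 0.34) and ranked 75. Among members of 3R found in both replicates, those at 1123806 to 1127428 and 529700 to 532525 followed by combined score, with 1.60 ± 0.38 and 1.42 ± 0.41 in the replicates. With the median difference between the replicates' lists (0.03) subtracted, replicate 1 was higher at all 4 of these, by 0.45 to 0.66.

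On 2L and 3L the members found in both replicates are given in the order of their combined score, with the replicates' scores beside it. The first on 2L, at 21307863 to 21312045, scored 1.51 and 1.57 (1.54 ± 0.04, SD, n = 2). It was followed by 22167562 to 22171935 at 1.45 ± 0.07, 22427791 to 22432925 at 1.37 ± 0.03 and 22120083 to 22123117 at 1.39 ± 0.23. On 3L the first, at 22940250 to 22943090, scored 1.58 and 1.61 (1.59 ± 0.02). Next in combined score were 22855829 to 22859430 at 1.49 ± 0.15 and 22827303 to 22835322, which was 8020 bp wide, at 1.39 ± 0.25. The 3 lay within the farthest 500 kb of the window, and the fourth, 24019506 to 24024474, was 521.6 kb from the end and scored 1.51 ± 0.05. By the mean of the replicates, other members came first on these arms. On 2L this was the member of 7664 bp at 22731391 to 22739054, with 1.73 and 1.64, and on 3L that at 23663076 to 23667579, with 1.61 and 1.85. Among members of 2L and 3L found in both replicates, the best rank in the combined list was 245. Of all members, 38 (11.6%, exact interval 8.33 to 15.6%) were among the highest-scoring 10.0% of the whole list. They were 13 of 95 on 2L (13.7%), 7 of 76 on 3L (9.21%) and 18 of 157 on 3R (11.5%), and the exact interval of each arm held 10.0%. In the middle the shares were 8.63%, 6.78% and 9.43%.

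**Figure D4:**
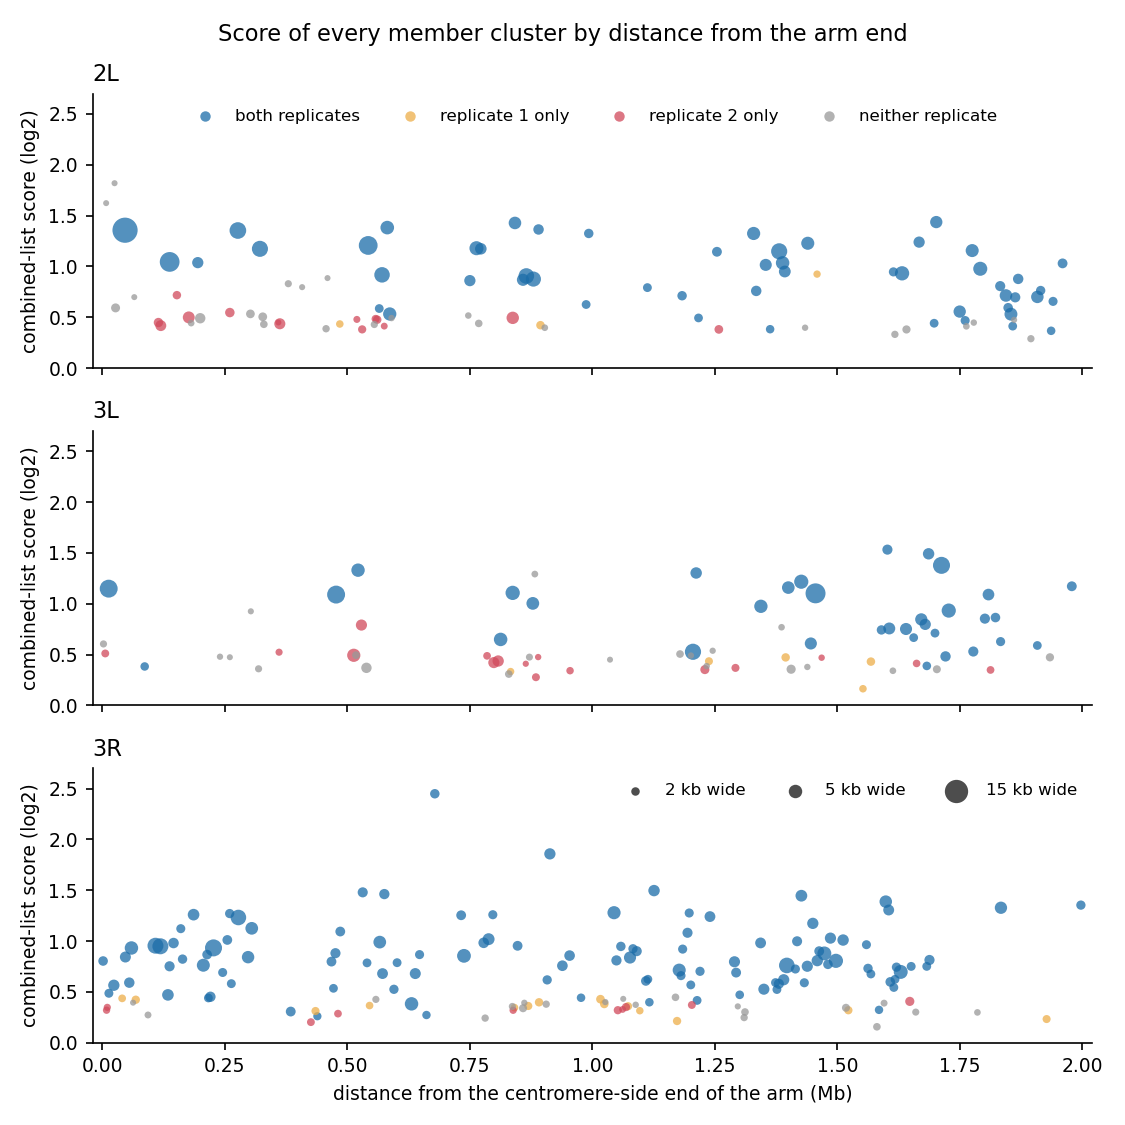
Combined-list log2 score (vertical axis) of each of the 328 members by distance in Mb from the arm end (horizontal axis); point area is proportional to width and colour gives the replicates' lists that overlap it. The widest point is the 17540 bp member near the end of 2L, and the highest is the 3R member at 2.45.

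The highest combined scores on 2L belonged to members that neither replicate had. The cluster nearest the arm end, at 23003552 to 23004552, was 1001 bp wide with a combined score of 1.62, and that at 22986367 to 22987385 was 1019 bp wide with 1.82. They ranked 178 and 86 in the combined list, within 25 kb of the end. The 66 members found in neither replicate were 1001 to 2998 bp wide, and their median combined score was 0.43, within a range of 0.16 to 1.82. The cluster nearest the end of 3L, at 24540768 to 24542197, was also in neither list and scored 0.61. On 3R the first cluster, at 9 to 2548, overlapped both and scored 0.93 in replicate 1 and 0.82 in replicate 2. The end of 3R thus began with a cluster found in both replicates, and the ends of 2L and 3L did not.

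Scores of members found in both replicates ran in parallel. Over the 200 of them, Pearson's r between the replicates' scores was 0.838 and Spearman's rho 0.856, against 0.827 and 0.808 for the 1650 such clusters in the middle of the arms. Clusters of 1 pair of libraries are not independent, and no test was made. The median difference, replicate 1 minus replicate 2, was -0.04 on 2L, -0.05 on 3L and 0.04 on 3R, and 0.03 over all 5493 clusters of the combined list found in both. Each list's scale has a constant of its own, so these differences are read relative to that last value. With it subtracted the medians were -0.07, -0.08 and 0.0091, so the members of 2L and 3L leaned towards replicate 2. The SD of the difference was 0.20 over the 200 members and 0.21 over the 5493 clusters, for which the counts that follow were not made. With the same value subtracted, replicate 1 was higher by more than 0.5 at 6 of the 200 members. Of these, 4 were among the 113 on 3R. Replicate 2 was higher by more than 0.5 at 1 of the 53 on 2L. That member of 2L, at 22422858 to 22427732, had the same replicate 2 score (1.39) as the adjacent member at 22427791 to 22432925. The widest gap among the 4 on 3R was at the member just inside the far edge of the window, 1995529 to 1997917, with 1.77 in replicate 1 and 0.79 in replicate 2.

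**Figure D5:**
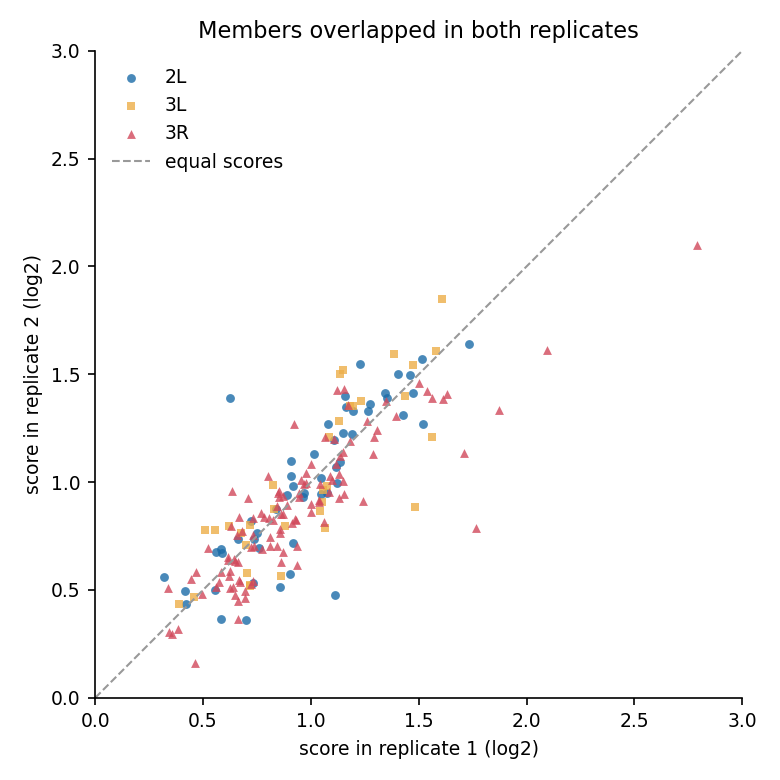
Log2 score in replicate 2 (vertical axis) against that in replicate 1 (horizontal axis) for the 200 members found in both lists, by arm, with a dashed line of equal scores. Points follow the line, and the 3R member at 2.79 and 2.10 is farthest to the right.

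Members were most closely spaced on 3R. The median distance from 1 combined-list cluster to the next was 7899.5 bp on 2L, 6728 bp on 3L and 4085 bp on 3R, against 5457.5, 5600 and 5962.5 bp in the middle of these arms. The longest stretch without a combined cluster was 155.4 kb on 2L (22265573 to 22421019), 243.8 kb on 3L (23759510 to 24003358) and 95.8 kb on 3R (1689173 to 1784956). In the middle of the arms the longest was 174.8 kb on 2L, 155.8 kb on 3L and 125.5 kb on 3R. On 3L the stretch in the window was therefore longer than any in the middle of that arm, and on 2L and 3R it was shorter. The stretches on 2L and 3R held no cluster of either replicate. That on 3L was touched by 1 cluster of each. Wider gaps stood between the members found in both replicates, the longest being 385.2 kb on 3L (24071215 to 24456404).

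The opposite, telomere-side 2 Mb of the arms had another order. There 3L was the densest, at 67.0 ± 2.12 clusters per Mb (SD, n = 2), followed by 2L at 53.5 ± 1.41 and 3R at 43.75 ± 2.47. At the centromere side these values were 23.75 ± 3.89, 32.5 ± 2.12 and 65.25 ± 1.06. The ends of each arm differed by more than the spread between replicates. The separately assembled heterochromatin was sparser than the windows in the combined list, with 19.0 clusters per Mb on 2LHet (7 clusters), 20.7 on 3LHet (53) and 10.7 on 3RHet (27). On 3RHet the replicates had 4.77 and 7.55 per Mb, against 66.0 and 64.5 in the window of 3R. How reads from repeats were treated is not stated, and its part in these densities was not tested.

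The edge of the window at 2 Mb did not pass through a cluster. The member of 2L farthest from the arm end, at 1959.3 kb, scored 1.03 in the combined list, and the first cluster beyond the edge, at 2015.4 kb, scored 0.44. On 3L the pair lay at 1978.2 and 2075.8 kb with scores of 1.17 and 0.64, and on 3R at 1996.7 and 2013.0 kb with 1.35 and 0.49.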

How the data were processed

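Sfmbt ChIP-seq clusters of adult heads were analysed for 2 ChIP replicates and their combination. Input replicates 1 and 2 are named per the labels as the inputs of the first and second list. Per the submitters' processing notes, Bowtie 0.12.7 was used. Positions refer to FlyBase release 5, per the file headers. For the caller, its threshold, repeated reads and the joining of replicates, settings were not given in the sources used here. The authors' deposited scores were read as log2, from their values alone. With 2 as the base, differences from a reference score gave whole-number ratios for at least 93.3% of 150 scores per list (relative tolerance 1e-11, denominators of at most 3000). With base e or 10 the share was 0.667%. For each list and base, the reference was the one of 150 tried that gave the highest share. What the numbers count is not stated, so depth is unknown.

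No cluster was removed. Clusters were placed by midpoint, covered length was clipped to the window, and where several clusters of a replicate overlapped a member, the highest score was taken. A replicate's cluster that overlapped several members could give its score to each of them. The headers gave the arm lengths. Regions named per arm were the 4 highest-scoring and the widest member found in both replicates, the member nearest the end, the longest gap, the fullest bin, and members found in neither replicate among the 3 highest scores. Other regions given were chosen after their values were seen. Members, rules and alternatives were chosen with earlier results of these data known. Alternatives covered the window, the middle, the overlap, the score, the arm and the replicate. Counting was checked on simulated data. Scripts ran in Python 3.11.15 with SciPy 1.17.1, pandas 2.3.3, NumPy 2.4.6 and, for plots, matplotlib 3.10.9.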

Additional observations from a re-analysis of the deposited data

Results flagged for a closer look

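The arms moved in opposite directions under the same contrast of centromere-proximal window minus middle, in each replicate's own list. In clusters per Mb, 3R differed by 11.1 in replicate 1 and by 10.9 in replicate 2, against -16.2 and -12.6 on 2L and -30.5 and -22.8 on 3L. In percent of sequence covered it was 3.19 and 2.74 on 3R, against -6.90 and -3.99 on 3L. The difference between arms was not tested.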

How the results depend on the processing

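No paired analysis was possible because the inputs have no cluster list of their own and no result comes from a test of ChIP against input. Values here pool the 3 arms of the combined list, as a ratio of window to middle for density (0.85), covered share (0.96) and median width (1.06), as a log2 difference for median score (0.08), and as percentage points for the share of members found in both replicates (-7.38). Pooling hides the arms. With 2L alone density was 0.79, width 1.10 and score 0.18. With 3L alone density was 0.59, covered share 0.67, the share found in both -21.5, and width (0.98) and score (-0.011) turned to the other side. With 3R alone density (1.19), covered share (1.21) and the share found in both (0.90) turned, and score was 0.106. Without 3R, an alternative chosen after seeing the data, density was 0.68, covered share 0.82, score 0.072 and the share found in both -15.8. Among clusters at or above the list's median score density was 0.9999, covered share turned to 1.12, width was 1.148 and score 0.051. Among clusters found in both replicates density was 0.76, width 1.21 and score 0.12. A window of 1 Mb held 157 members, with a score difference of 0.043 and a share found in both of -16.1. A window of 3 Mb held 501, with a width of 1.03 and a score of 0.049. With the longest gap taken out density was 0.92. The causes were not tested. In the replicates' own lists, with each left out in turn, density was 0.76 to 0.83, covered share 0.85 to 0.97, width 1.09 to 1.12 and score 0.117 to 0.126, all with their direction kept. Of all alternatives, 27 stayed close to the main value, 24 moved further away and 6 turned to the other side. Close meant within the spread between replicates, or within the counting error for the share found in both. The number of members was judged by its ratio to the main count instead. Alternatives leaving out a replicate were close by construction, since with 2 replicates the mean then moves by less than their SD. Peak lists give no depth, so faint sites are out of reach.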

Other observations

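The longest stretch without a combined cluster at the base of 3L held a strong cluster of 1 replicate. It lay at 23972930 to 23974339, was 1410 bp wide and scored 2.74 in replicate 1, the highest score of that list in the 3L window. Replicate 2 had no cluster there. It was chosen after its value was seen. Replicate 2 had 1 cluster in the 3L window without a combined partner, at 23685582 to 23687174, with a score of 0.35. No cluster of either replicate in the windows of 2L and 3R lacked a partner in the combined list. Such clusters were rare in the middle of the arms too, with 5 of 1941 in replicate 1 and 4 of 1889 in replicate 2.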
